A study of Mus musculus with 25 samples.

Results

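Lgals1, Tagln2, Tagln, Acta2, Myl9, Tpm1, Tpm2, Anxa2, S100a6 and Myadm encode a galectin and proteins that build, contract or anchor the actin cytoskeleton. They were taken by gene name from a table of 54429 entries, and all 10 were found. They were chosen by their measured RPKM over the days in culture, where Lgals1 and Tagln2 fall, so values by day are a description with no test. RNA was sequenced from mouse cortical astrocytes (strain C57BL/6J) purified by immunopanning, that is, captured from a cell suspension on a surface coated with an antibody, here to the astrocyte protein HepaCAM. There were 25 libraries in 9 groups. An EGFR inhibitor, a P53 inhibitor and the DMSO (solvent) control of each were represented by 3 libraries per group, and both inhibitors went into the medium on day 2 in vitro. Cells from which the EGFR ligand HBEGF was withdrawn, and cells to which it was added, both on the day of preparation, gave 2 libraries each. Days 2, 7 and 14 in vitro were represented by 3 libraries each. The inhibitors' names and doses, the harvest day after treatment, the age and number of animals, and whether replicates were separate cultures are not stated in the labels. P-values therefore measure only how these samples spread, which may be technical variation.

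Actin filaments give a cell its shape, and myosin II pulls on them when its light chains are phosphorylated. Tropomyosins lie along the filament, transgelins bundle filaments, and annexin A2 and S100 proteins link them to membranes. Acta2, Myl9, Tagln and the tropomyosin genes are known targets of the transcription factor SRF, whose cofactor MRTF is held in the cytoplasm by monomeric actin. In the brain, strong expression of this set is best known from smooth muscle cells and pericytes of vessels, while galectin-1 is known from immature and reactive astrocytes.

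Libraries held 4009499 to 9689195 counted reads (median 6106531). Mitochondrial ribosomal RNA made up 23.3 ± 1.76% of them in EGFR inhibitor libraries and 18.6 ± 0.236% in their DMSO libraries. The share was 28.8 ± 1.29% in withdrawal libraries and 17.7 ± 0.750% in those with HBEGF (SD). Over 2354 genes averaging 5 RPKM or more, the median log2 change was -0.33 with the EGFR inhibitor and -0.45 after withdrawal, and median-of-ratios scaling, which centres such genes, moves it to -0.01 in each. Over all 13848 genes tested the medians were -0.02 and -0.10. Day 7 replicate 3 stood apart, with the lowest mean Spearman correlation to its own group (0.825, against up to 0.931), and 7 of the 25 libraries were most like a library of another group. Changes were tested by limma, in a single fit of log2(RPKM + 1) for 13848 genes with p-values adjusted over all of them, and are given ± SE. Group values are mean RPKM ± SD. RPKM here is reads scaled to library size and to the length of the whole gene, introns included, so levels are compared between genes only after rescaling to exon length. In bulk RNA, fewer cells of a type cannot be told apart from less RNA per cell.

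Rescaled to exon length, Lgals1 and Tagln2 stood highest, with median levels over the 25 libraries of 65.6 (range 12.9 to 443) and 57.3 (13.6 to 210). Acta2 (18.5), Myl9 (18.0) and Tpm1 (17.3) had medians close to each other, but the range of Acta2 ran from 2.12 to 114 and that of Tpm1 from 14.0 to 28.6. Myadm (9.48), Anxa2 (6.13) and S100a6 (3.50) followed, and Tpm2 (1.38) and Tagln (0.734) were lowest. Tagln passed the filter on low values only through 2 libraries with at least 1 RPKM, Tpm2 through 4, S100a6 through 7 and Anxa2 through 8.

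Lgals1 encodes galectin-1, a lectin that binds galactose-bearing sugar chains and acts inside and outside the cell (ENSMUSG00000068220.6, protein coding, GRCm38 chromosome 15, 78926725 to 78930465, plus strand). On day 2 its level was 89.4, 106.8 and 47.0 RPKM. On day 7 it was 14.4, 11.9 and 18.6 RPKM, and on day 14 it was 10.6, 14.3 and 12.8 RPKM. All day 2 libraries lay above all later ones, while days 7 and 14 overlapped, so the difference lay between days 2 and 7. In EGFR inhibitor libraries Lgals1 had 4.64, 3.12 and 4.40 RPKM, against 37.6, 38.3 and 41.1 RPKM with DMSO. It fell 9.62-fold (log2 change -2.997 ± 0.252, adjusted p = 1.48e-07). After HBEGF withdrawal it had 7.40 and 4.09 RPKM, against 30.5 and 36.1 RPKM with HBEGF. Here too it fell, by 5.80-fold (log2 change -2.39 ± 0.31, adjusted p = 1.56e-05). With the P53 inhibitor it had 22.5, 21.7 and 15.8 RPKM, against 12.4, 15.9 and 15.2 RPKM with DMSO. These groups overlapped (adjusted p = 0.722).

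Tagln2 encodes transgelin-2, an actin-bundling protein found in many cell types outside smooth muscle (ENSMUSG00000026547.15, protein coding, chromosome 1, 172500047 to 172507380, plus strand). It had 35.1, 43.8 and 33.4 RPKM on day 2, then 10.6, 10.2 and 21.2 RPKM on day 7, and 3.86, 8.37 and 4.78 RPKM on day 14. Here the 3 days did not overlap. Day 7 averaged 14.0 ± 6.23 RPKM, or 10.4 RPKM without replicate 3. Under EGFR inhibition Tagln2 had 9.74, 10.2 and 9.36 RPKM, against 59.5, 54.5 and 50.3 RPKM with DMSO. It fell 5.60-fold (log2 change -2.37 ± 0.27, adjusted p = 2.96e-06). After HBEGF withdrawal it had 18.0 and 9.29 RPKM, against 19.997 and 30.99 RPKM with HBEGF, a 1.87-fold fall with little room between the groups (-0.89 ± 0.33, adjusted p = 0.0482). That call was lost without HBEGF replicate 2 (adjusted p = 0.335) and without HBEGF withdrawal replicate 2 (0.439), and under median-of-ratios scaling (0.338). With the P53 inhibitor it had 15.9, 15.4 and 14.3 RPKM, against 16.3, 22.9 and 20.01 RPKM with DMSO (adjusted p = 0.829).

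**Figure D1:**
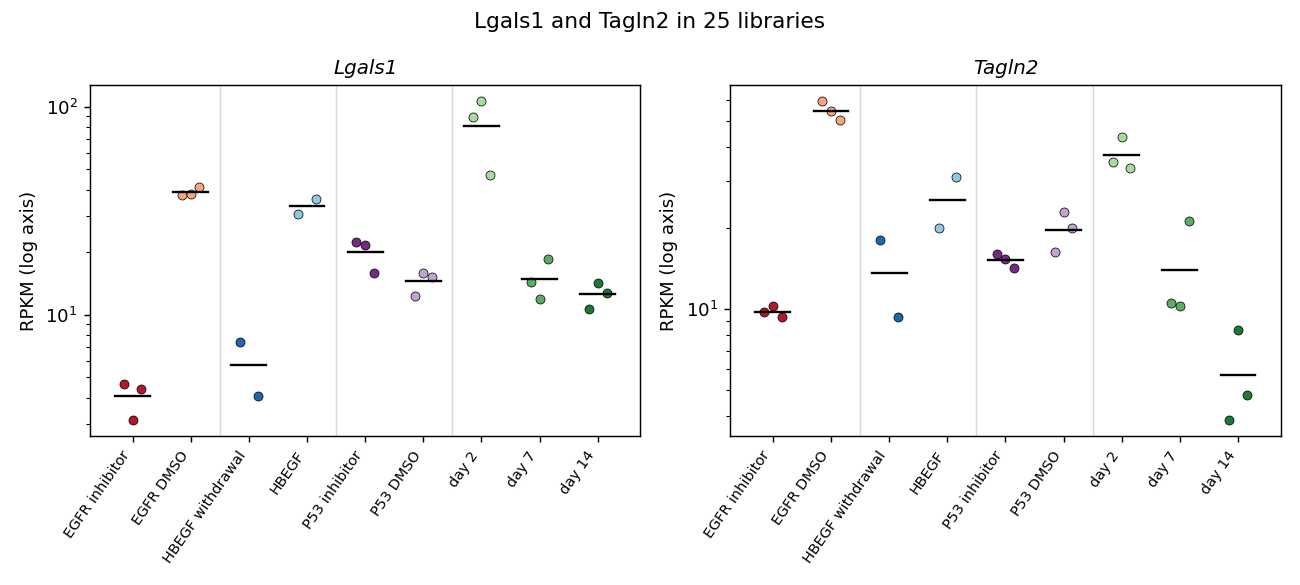
RPKM of Lgals1 and Tagln2 in each of the 25 libraries (points; log axis) with the group mean as a bar, for the 9 groups. The EGFR inhibitor libraries lie far below their DMSO libraries for both genes, and all day 2 libraries lie above those of days 7 and 14.

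The order of the groups differed between the pair. Lgals1 was highest on day 2 (81.1 ± 30.8 RPKM), followed without overlap by the DMSO group of the EGFR experiment (39.0 ± 1.85) and cells with HBEGF (33.3 ± 3.95). The P53 inhibitor group, day 7, the P53 DMSO group and day 14 came next and each overlapped its neighbour. HBEGF withdrawal (5.75 ± 2.34) and the EGFR inhibitor (4.05 ± 0.818) were lowest and overlapped. Tagln2 was highest in the DMSO group of the EGFR experiment (54.8 ± 4.60 RPKM), above day 2 (37.4 ± 5.56), and lowest on day 14 (5.67 ± 2.38), below the EGFR inhibitor group (9.77 ± 0.431), each without overlap. Both sets of controls had DMSO, yet Tagln2 averaged 54.8 ± 4.60 RPKM in that of the EGFR experiment and 19.7 ± 3.30 RPKM in that of the P53 experiment.

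The contractile genes stood in another order. HBEGF withdrawal had the highest mean for Acta2, Myl9, Tpm1 and Tpm2, in each overlapping the next group (for Tpm1 5.926 against 5.922 RPKM on day 2), while Tagln had its highest mean on day 14. Acta2 encodes the actin of smooth muscle (ENSMUSG00000035783.9, protein coding, chromosome 19, 34241090 to 34255590, minus strand), and its coding sequence is close to that of other actin genes, so its reads are less certain. After HBEGF withdrawal it had 11.1 and 17.3 RPKM, against 4.18 and 3.26 RPKM with HBEGF. It rose 3.81-fold (1.66 ± 0.43, adjusted p = 0.00575), a call lost without HBEGF withdrawal replicate 2 (0.068). With the EGFR inhibitor it had 2.81, 4.04 and 2.75 RPKM, against 3.39, 2.21 and 2.03 RPKM with DMSO. Those groups overlapped, and the change did not pass (0.25 ± 0.35, adjusted p = 0.613). On days 2, 7 and 14 it had 1.17, 2.72 and 1.01 RPKM, then 3.86, 3.33 and 12.3 RPKM, then 3.53, 8.35 and 6.66 RPKM. Both later days lay above day 2, and the day 7 mean of 6.48 ± 5.01 RPKM was 3.60 RPKM without replicate 3.

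Myl9 encodes a regulatory light chain of myosin II that is abundant in smooth muscle (ENSMUSG00000067818.6, protein coding, chromosome 2, 156775420 to 156781658, plus strand). Given the EGFR inhibitor, the cells had 8.97, 11.99 and 6.86 RPKM, against 4.81, 3.53 and 3.14 RPKM with DMSO. It rose 2.42-fold (1.07 ± 0.25, adjusted p = 0.00256). After HBEGF withdrawal it had 8.02 and 12.9 RPKM, against 6.41 and 4.04 RPKM with HBEGF, a rise of 2.00-fold (0.87 ± 0.31, adjusted p = 0.0396). The second call was lost without HBEGF replicate 2 (0.293) or HBEGF withdrawal replicate 2 (0.305). By day it averaged 1.61 ± 0.491 RPKM on day 2, 3.93 ± 1.13 on day 7 and 5.18 ± 2.11 on day 14, with both later days above day 2 in every library.

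Tpm1 and Tpm2 encode the alpha and beta chains of muscle-type tropomyosin (chromosome 9, 67022590 to 67049406, and chromosome 4, 43514711 to 43523765, both protein coding and on the minus strand, ENSMUSG00000032366.15 and ENSMUSG00000028464.16). Tpm1 was the most even of the 10 genes, with a 1.71-fold span between its highest and lowest group means. With the EGFR inhibitor it had 3.55, 3.47 and 3.39 RPKM, against 6.03, 4.88 and 4.74 RPKM with DMSO. It fell 1.51-fold (-0.47 ± 0.13, adjusted p = 0.00690), but not under median-of-ratios scaling (-0.19, adjusted p = 0.175). After HBEGF withdrawal it had 6.20 and 5.65 RPKM, against 5.27 and 3.84 RPKM with HBEGF. That change missed the threshold (0.33 ± 0.16, adjusted p = 0.125) and passed it as higher under median-of-ratios scaling (0.75, adjusted p = 0.000301). Without HBEGF replicate 1 the change was 0.51. Tpm2 had 1.69 and 0.834 RPKM after withdrawal, against 0.270 and 0.217 RPKM with HBEGF. It rose 5.19-fold (0.84 ± 0.16, adjusted p = 0.000654). The HBEGF values rest on 19 and 12 reads, and their mean of 0.243 RPKM was the lowest of the 9 groups. With the EGFR inhibitor Tpm2 had 0.626, 1.10 and 0.555 RPKM, against 0.960, 1.06 and 1.18 RPKM with DMSO (adjusted p = 0.166), and it passed as lower without EGFR inhibitor replicate 2 (0.0381). On days 2, 7 and 14 Tpm2 averaged 0.727 ± 0.129, 0.317 ± 0.132 and 0.367 ± 0.0629 RPKM, and Tpm1 averaged 5.92 ± 1.20, 4.65 ± 0.880 and 4.09 ± 0.401 RPKM.

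Tagln encodes transgelin (SM22), the smooth muscle relative of transgelin-2 (ENSMUSG00000032085.5, protein coding, chromosome 9, 45929619 to 45936058, minus strand). Its values are uncertain, because 67.9% of its exon bases overlap Pcsk7 and Gm48529 on the opposite strand and no source states whether reads were counted by strand. In EGFR inhibitor libraries it had 0.133, 0.0517 and 0.0269 RPKM, against 0.442, 0.349 and 0.227 RPKM with DMSO. The inhibitor values rest on 5, 2 and 1 reads, and the change did not pass (-0.32 ± 0.17, adjusted p = 0.147), although it did with a pseudocount of 0.1 (0.0261), by voom on recovered reads (0.0188) and with exon-length RPKM (0.0377). After HBEGF withdrawal Tagln had 0.546 and 0.648 RPKM, against 0.379 and 0.305 RPKM with HBEGF (adjusted p = 0.396). It averaged 0.0691 ± 0.0378 RPKM on day 2, 0.579 ± 0.370 on day 7 and 0.743 ± 0.422 on day 14, with all later libraries above day 2.

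Anxa2, S100a6 and Myadm act where actin meets membranes. Anxa2 encodes annexin A2, which binds phospholipid and actin in a calcium-dependent way (ENSMUSG00000032231.14, protein coding, chromosome 9, 69453620 to 69491795, plus strand). It had 0.729, 1.08 and 0.581 RPKM with the EGFR inhibitor, against 0.600, 0.393 and 0.602 RPKM with DMSO, and 1.80 and 1.34 RPKM after HBEGF withdrawal, against 1.78 and 1.10 RPKM with HBEGF. Both pairs of groups overlapped, and neither change passed (adjusted p = 0.370 and 0.837). S100a6 encodes calcyclin, a calcium-binding partner of annexins (ENSMUSG00000001025.8, protein coding, chromosome 3, 90612882 to 90624181, plus strand). It had 2.34, 2.59 and 2.15 RPKM with the EGFR inhibitor, against 0.503, 0.305 and 0.516 RPKM with DMSO. That was a 5.34-fold rise (1.22 ± 0.30, adjusted p = 0.00338). After withdrawal it had 3.68 and 3.04 RPKM, against 2.09 and 0.565 RPKM with HBEGF, a 2.53-fold rise that only just passed (0.98 ± 0.37, adjusted p = 0.0485). It did not pass without HBEGF replicate 2 (0.454), HBEGF withdrawal replicate 1 (0.175) or HBEGF withdrawal replicate 2 (0.0993).

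Anxa2 averaged 1.17 ± 0.186 RPKM on day 2, 0.554 ± 0.601 on day 7 and 0.496 ± 0.0918 on day 14, and without day 7 replicate 3 the day 7 mean was 0.208. S100a6 averaged 0.346 ± 0.215, 0.912 ± 1.31 and 0.411 ± 0.0724 RPKM on those days, and its day 7 mean was 0.155 without replicate 3, which alone had 2.43 RPKM. The high mean of S100a6 on day 7 thus came from 1 library.

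Myadm encodes a membrane protein with MARVEL domains that associates with the cortical actin and lipid rafts (ENSMUSG00000068566.12, protein coding, chromosome 7, 3289080 to 3300442, plus strand). After HBEGF withdrawal it had 9.53 and 10.8 RPKM, against 1.49 and 3.40 RPKM with HBEGF. It rose 4.15-fold (1.75 ± 0.21, adjusted p = 7.66e-06). Under EGFR inhibition it had 2.95, 3.83 and 3.74 RPKM, against 5.05, 5.53 and 5.40 RPKM with DMSO, in the opposite direction. It fell 1.52-fold (-0.50 ± 0.17, adjusted p = 0.0277), a call lost under median-of-ratios scaling (-0.21, adjusted p = 0.402). The call was also lost without EGFR DMSO replicate 2 (0.0740) or 3 (0.0665) and without EGFR inhibitor replicate 1 (0.114). On days 2, 7 and 14 it averaged 5.65 ± 1.37, 2.30 ± 0.514 and 2.27 ± 0.335 RPKM, with day 2 above both later days in every library.

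**Figure D2:**
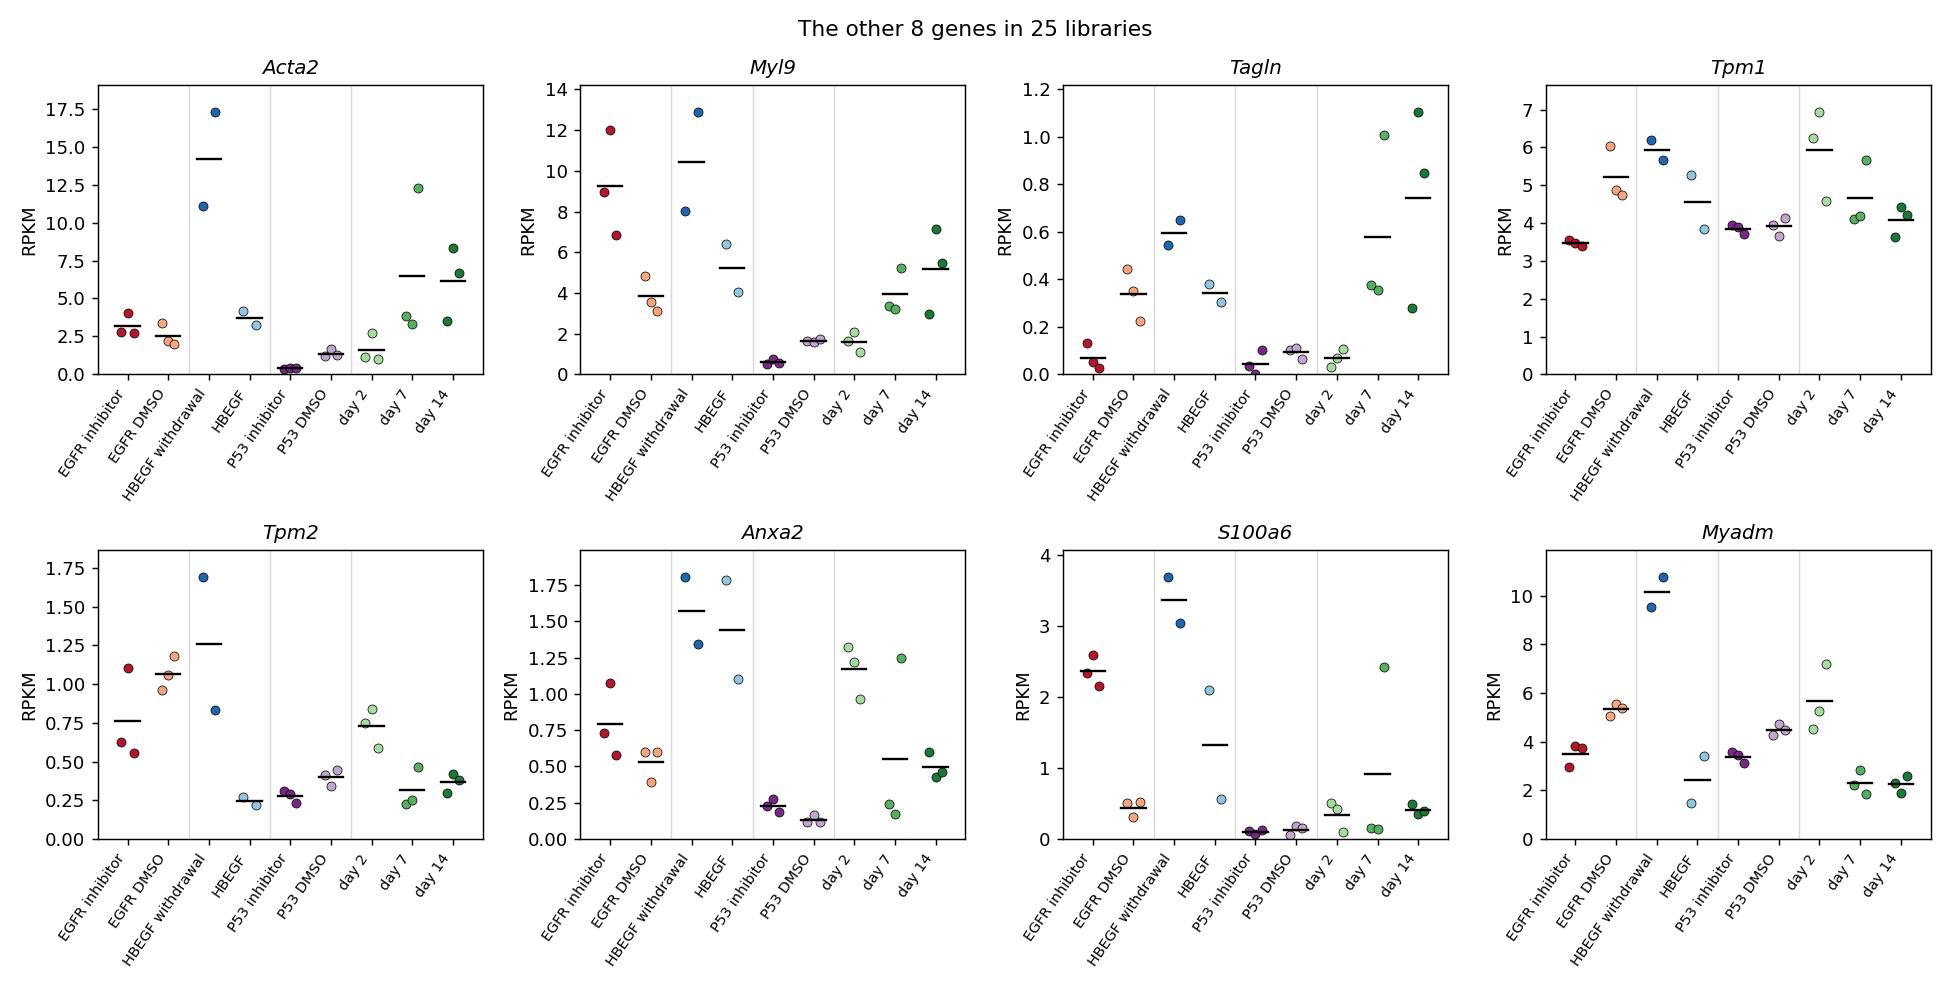
RPKM of the other 8 genes in each of the 25 libraries (points) with the group mean as a bar, each panel on its own axis from 0. The HBEGF withdrawal group has the highest mean for Acta2, Myl9, Tpm1, Tpm2, Anxa2, S100a6 and Myadm, and day 7 replicate 3 lies far above its group for Acta2, Anxa2, S100a6 and Tagln.

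Over the days, the choice of genes fixes part of what is seen, and nothing is read from the counts. Between days 14 and 2, 6 of the 10 genes had lower values on day 14 in every library and 3 had higher values, while S100a6 overlapped. Of all 13848 genes tested, 24.7% were lower and 8.32% higher without overlap.

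With the EGFR inhibitor, 4 of the 10 genes were called lower (Lgals1, Tagln2, Tpm1 and Myadm) and 2 higher (Myl9 and S100a6). In the background, 22.2% of all tested genes were called lower and 16.3% higher. After HBEGF withdrawal 2 were called lower (Lgals1 and Tagln2) and 5 higher (Acta2, Myl9, Tpm2, S100a6 and Myadm), where 22.5% of all genes were lower and 10.0% higher. Without HBEGF replicate 2 these counts were 1 lower and 3 higher, and without HBEGF withdrawal replicate 2 they were 1 and 2. The median change of the 10 genes was -0.28 with the inhibitor and 0.58 after withdrawal, against the medians over all tested genes given above. For withdrawal, the estimate of spread also drew on the other 21 libraries. Fitted from the 4 libraries of that experiment alone, limma called 0 of the 10 genes, of which 4 had an unadjusted p below 0.05. That fit also called 0 of all 13848 genes, of which 3925 had an unadjusted p below 0.05. Its lack of calls is therefore not particular to the 10 genes.

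**Figure D3:**
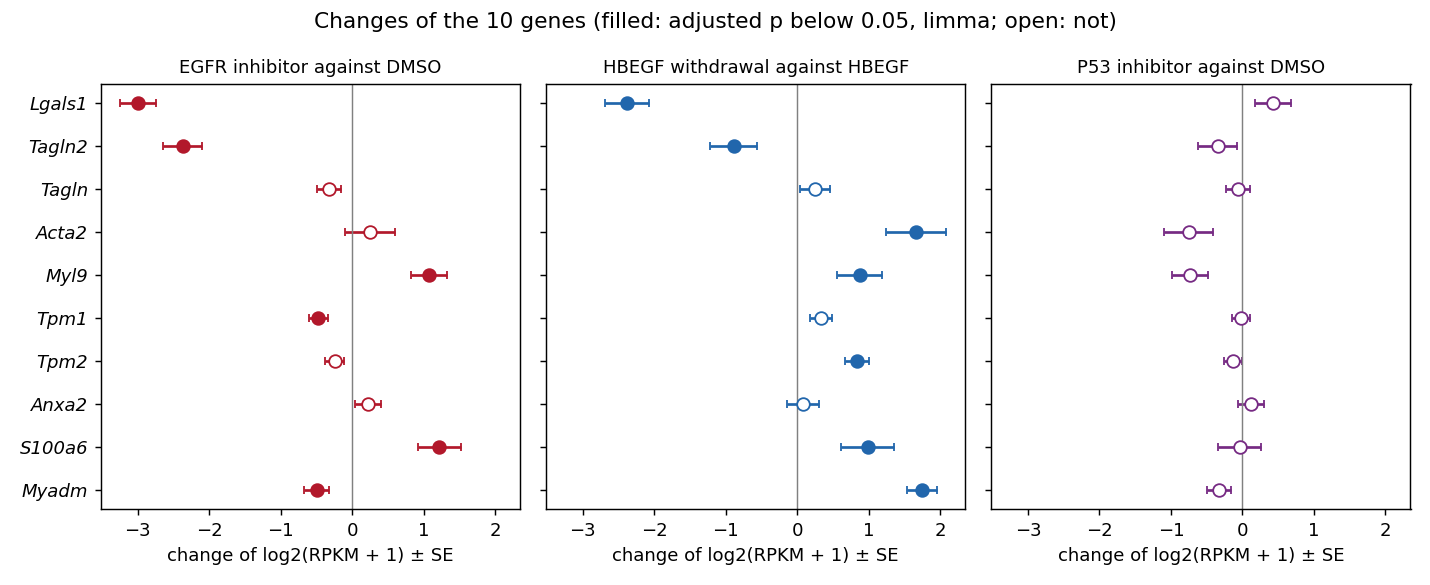
Change of log2(RPKM + 1) with its SE for the 10 genes with the EGFR inhibitor (left), after HBEGF withdrawal (middle) and with the P53 inhibitor (right), with filled points where limma's adjusted p was below 0.05. Lgals1 and Tagln2 lie on the lower side in the first 2 panels, while Myadm and Tpm2 lie on opposite sides of 0 in them.

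HBEGF is a ligand of EGFR, and each of the 2 experiments had its own controls, so the difference between the changes was tested. It passed for 2 of the 10 genes, Myadm (-2.24 ± 0.27, adjusted p = 0.000689) and Tpm2 (-1.08 ± 0.21, adjusted p = 0.0120), both lower with the inhibitor relative to withdrawal. Of all tested genes 1.83% differed. The Tpm2 difference was lost without HBEGF withdrawal replicate 1 (0.0653) and with the replicate number as a block (0.0591). For Tpm1 the difference of -0.80 ± 0.20 lay at the threshold (adjusted p = 0.0513) and passed without HBEGF replicate 1 (0.0438). For Tagln2 it was -1.48 ± 0.43 (adjusted p = 0.0852) and passed without HBEGF withdrawal replicate 2 (0.0423). Acta2, which rose after withdrawal and did not pass with the inhibitor, gave a difference of -1.41 that did not pass (adjusted p = 0.207), and Lgals1 gave -0.61 (adjusted p = 0.490). The harvest day of either experiment is not given, so time in culture cannot be told apart from the kind of treatment here.

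With the P53 inhibitor, limma called 0 of the 10 genes, and 0.181% of all tested genes. Myl9 and Acta2 had an unadjusted p below 0.05, and voom on recovered reads, with 3 such genes, also called 0. Acta2 had 0.322, 0.446 and 0.438 RPKM with the inhibitor, against 1.21, 1.64 and 1.26 RPKM with DMSO (-0.75 ± 0.35, adjusted p = 0.594). Myl9 had 0.502, 0.755 and 0.553 RPKM, against 1.66, 1.57 and 1.73 RPKM with DMSO (-0.73 ± 0.25, adjusted p = 0.347). Neither gene overlapped between the groups, and both had their lowest group mean of the series with the inhibitor. Altogether 5 of the 10 genes were lower and 1 higher without overlap, where all tested genes gave 11.3% and 9.05%.

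Markers of other cells were measured beside these genes. All 10 astrocyte markers were detected in every group. They summed to 369 to 389 RPKM with the EGFR inhibitor against 116 to 146 with DMSO, with 6 called higher and 1 lower, and to 279 to 303 after withdrawal against 122 to 128 with HBEGF, with 5 higher and 2 lower. Gfap, the filament gene of astrocytes, had 66.1 ± 4.78 RPKM with the inhibitor against 3.48 ± 0.324 with DMSO. Hepacam, the gene of the panning antigen, ranged from 7.70 ± 2.29 RPKM on day 2 to 16.7 ± 3.75 on day 14. The summed level of 12 pericyte or smooth muscle markers was 5.51 to 6.81 RPKM after HBEGF withdrawal against 2.46 to 2.52 with HBEGF, and 3.23 to 3.75 in EGFR inhibitor libraries against 2.79 to 4.79 in their DMSO libraries. Of the 3 that were tested, Pdgfrb, Mcam and Cspg4, 2 were called higher after withdrawal, Pdgfrb (1.51 ± 0.218 against 0.199 ± 0.0376 RPKM with HBEGF, adjusted p = 6.92e-06) and Mcam (1.23 and 3.28 against 0.713 and 0.825 RPKM, adjusted p = 0.0344). With the EGFR inhibitor Pdgfrb was also called higher (1.16 ± 0.118 against 0.140 ± 0.0434 RPKM with DMSO, adjusted p = 2.25e-06) and Cspg4 lower. Pdgfrb passed the filter only through the EGFR inhibitor and withdrawal libraries, so its calls are not independent of the filter. Its highest value elsewhere was 0.237 RPKM, on day 7. Kcnj8 was at 0 in all groups, Abcc9 at 0 both after withdrawal and with HBEGF, and Vtn at 0 after withdrawal against 2 reads with HBEGF. The smooth muscle myosin gene Myh11 stood at 0.0201 ± 0.0151 RPKM after withdrawal against 0.0142 ± 0.00810 with HBEGF, whereas the calponin gene Cnn1 stood at 0.925 ± 0.311 against 0.0842 ± 0.0143. The 10 fibroblast or meningeal markers summed to 2.16 to 5.44 RPKM after withdrawal against 3.26 to 3.41 with HBEGF, with Dcn and Lum at 0 in both. Pdgfra made up 1.31 ± 0.638 against 2.84 ± 0.0314 RPKM of these sums. The other fibroblast markers were untested because they failed the filter. Several had higher means after withdrawal, such as Postn (0.0797 and 3.37 RPKM against 0 and 0.0258 with HBEGF), Col1a1 (0.0118 and 0.546 against 0 and 0.0292) and Col1a2 (0.146 and 0.291 against 0.0134 and 0.0175). Foxc1 went the other way without overlap, with a mean of 0.0693 RPKM after withdrawal against 0.438 with HBEGF. The 11 microglia or macrophage markers summed to 16.7 and 32.1 RPKM after withdrawal against 1.86 and 1.05 with HBEGF, and to 5.57 to 8.64 with the EGFR inhibitor against 2.07 to 2.56 with DMSO, with Tmem119 at 0 in all. The lysozyme gene Lyz2 made up 10.4 and 23.5 RPKM of the withdrawal sums. Only 2 of the 11 were tested, and limma called 2 higher and 0 lower in each treatment. After withdrawal Cd68 had 5.57 ± 0.962 RPKM against 1.09 ± 0.707 with HBEGF. Untested, Ctss (0.381 ± 0.0454 against 0.00493 ± 0.000838) and Trem2 (0.389 ± 0.103 against 0.0106 ± 0.0149) were also higher. P2ry12 overlapped (0.00820 ± 0.0116 against 0.00589 ± 0.00337). The 8 endothelial markers summed to 0.462 RPKM or less in every library. The 8 markers of the oligodendrocyte lineage summed to 48.7 to 64.4 RPKM with the EGFR inhibitor against 104 to 141 with DMSO, and to 58.5 to 60.5 after withdrawal against 148 to 163 with HBEGF. Olig2 made up most of it, with 49.5 ± 6.91 RPKM with the inhibitor against 123 ± 20.3 with DMSO. The other markers did not all follow this sum. Of 7 tested, limma called 2 lower and 1 higher with the inhibitor (median log2 change 0.29). After withdrawal it called 2 lower and 3 higher (median 0.32). The 6 neuron markers summed to 2.81 to 3.90 RPKM with the inhibitor against 0.890 to 0.987 with DMSO, and to 2.53 to 3.54 after withdrawal against 0.941 to 2.45 with HBEGF. Tubb3, the only one tested, carried this (3.03 ± 0.591 against 0.159 ± 0.0158 RPKM with the inhibitor), while Snap25 (0.258 ± 0.0355 against 0.425 ± 0.0419) and Gap43 (0.118 ± 0.0138 against 0.359 ± 0.0876) had lower means. The part of any of these cells in the changes of the 10 genes was not tested.

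Other genes of the same machinery were counted from 11 lists that hold none of the 10. Of 144 listed genes 79 were tested. With the EGFR inhibitor 36 of them fell and 13 rose (45.6% and 16.5%, beside 22.2% and 16.3% of all tested genes), with a median change of -0.23. After HBEGF withdrawal 34 fell and 10 rose (43.0% and 12.7%, beside 22.5% and 10.0%), with a median of -0.31. Under median-of-ratios scaling these counts were 22 lower and 24 higher with the inhibitor, and 13 lower and 24 higher after withdrawal. The split thus depended on the scaling, as did that of all tested genes. Of all 13848 genes, that scaling called 1713 lower and 3939 higher with the inhibitor, against 3076 and 2260 in the reported fit. After withdrawal it called 1230 lower and 3187 higher, against 3121 and 1389. Without HBEGF replicate 2 the list genes that rose after withdrawal numbered 4. With the P53 inhibitor limma called 0 of the 79, where 11 had an unadjusted p below 0.05 and voom called 2.

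Genes of actin turnover, which nucleate, cap and cut filaments, moved 1 way where they passed, with 13 lower and 0 higher of 22 with the EGFR inhibitor and 15 and 0 after withdrawal. Those shares were 59.1% and 68.2%, beside 22.2% and 22.5% of all tested genes, and the list medians of -0.32 and -0.45 were close to those of the 2354 genes averaging 5 RPKM or more. Under median-of-ratios scaling the counts were 6 lower and 4 higher with the inhibitor, and 8 and 3 after withdrawal. The counts of all tested genes under that scaling are given above. The Arp2/3 subunit genes Actr3 (2.33 ± 0.0656 against 5.76 ± 0.368 RPKM, adjusted p = 1.54e-07) and Arpc2 (3.87 ± 0.240 against 8.41 ± 0.249, adjusted p = 2.58e-06) fell with the inhibitor, and both fell after withdrawal (1.81 ± 0.172 against 5.32 ± 0.247 and 3.86 ± 0.521 against 10.1 ± 0.0560). The list of other tropomyosins and tropomodulins gave 3 lower and 1 higher of 4, then 3 and 0. Under median-of-ratios scaling it gave 2 and 1, then 2 and 1. Its Tpm4, the short nonmuscle form, fell to 4.16 ± 0.0827 RPKM with the inhibitor, against 12.7 ± 1.40 with DMSO (adjusted p = 3.66e-07), and to 4.76 ± 0.637 after withdrawal, against 13.2 ± 2.23 with HBEGF (adjusted p = 1.01e-05). Tpm4 and Tpm2 thus moved in opposite directions after withdrawal.

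Myosin II and its regulators gave 8 lower and 2 higher of 11 with the inhibitor (72.7% and 18.2%, beside 22.2% and 16.3% of all tested genes). After withdrawal they gave 6 and 0 (54.5% and 0%, beside 22.5% and 10.0%). This depended on the scaling, and median-of-ratios scaling gave 4 and 3 with the inhibitor, and 1 and 1 after withdrawal. The nonmuscle light chain gene Myl12a, whose reads can be shared with its near copy Myl12b, fell in both (2.62 ± 0.225 against 5.42 ± 0.738 RPKM with the inhibitor, adjusted p = 0.000728, and 3.62 ± 0.216 against 6.10 ± 1.17 after withdrawal, adjusted p = 0.0280, but 0.383 under median-of-ratios scaling), while its relative Myl9 rose. Rhob, a small GTPase gene, rose with the inhibitor (29.8 ± 6.78 against 13.4 ± 0.868 RPKM, adjusted p = 0.000211). Crosslinker and focal adhesion genes went both ways in the reported fit, with 5 lower and 5 higher of 16 (31.25% each), then 4 and 4 (25% each). Under median-of-ratios scaling they gave 4 lower and 6 higher with the inhibitor, and 0 and 8 after withdrawal. The zyxin gene Zyx fell with the inhibitor (4.17 ± 0.282 against 8.02 ± 2.27 RPKM, adjusted p = 0.00192), and Flna, for filamin A, fell after withdrawal (12.4 ± 1.03 against 17.5 ± 4.71, adjusted p = 0.0176), where median-of-ratios scaling gave 0.02 on the log2 scale (0.949). Of 3 other actin genes Actb fell after withdrawal (301 ± 28.0 against 457 ± 100.2 RPKM, adjusted p = 0.0476, or 0.727 under median-of-ratios scaling), and 0 passed with the inhibitor, with 0 at an unadjusted p below 0.05 in limma.

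In the families closest to the 10 genes, the galectin-like gene Lgalsl fell with the inhibitor (3.27 ± 0.803 against 6.19 ± 0.742 RPKM, adjusted p = 0.000465) and after withdrawal (3.03 ± 0.00199 against 7.17 ± 0.198, adjusted p = 0.000288), and the second of 2 tested galectin genes did not pass. The S100 list gave 1 lower and 1 higher of 5 with the inhibitor, and 0 and 2 after withdrawal. Under median-of-ratios scaling it gave 1 and 2 with the inhibitor, and 0 and 3 after withdrawal. S100a1 rose in both (7.71 ± 0.917 against 2.22 ± 0.521 RPKM, adjusted p = 0.000123, and 8.85 ± 1.63 against 2.78 ± 1.10, adjusted p = 0.00129), whereas S100a16 fell with the inhibitor (4.81 ± 0.421 against 8.46 ± 0.632, adjusted p = 0.000923). The annexin list gave 2 lower and 2 higher of 4, then 1 and 2, with Anxa5 higher after withdrawal (5.29 ± 0.774 against 2.03 ± 0.444 RPKM, adjusted p = 1.92e-05). Median-of-ratios scaling gave 2 and 2, then 0 and 3. The calponin gene Cnn3 rose with the inhibitor (5.35 ± 0.458 against 3.77 ± 0.395 RPKM, adjusted p = 0.0230), 1 of 2 calls among 3 tested transgelin and calponin genes, and after withdrawal limma called 0 of the 3, with 0 at an unadjusted p below 0.05. Among 8 membrane linker genes 2 fell and 1 rose, then 3 and 2, or 2 and 3, then 1 and 3, under median-of-ratios scaling. The moesin gene Msn fell with the inhibitor (5.77 ± 0.511 against 13.9 ± 0.725 RPKM, adjusted p = 9.62e-07), as did the radixin gene Rdx (4.70 ± 0.137 against 7.51 ± 0.0598, adjusted p = 2.28e-06). Rdx also fell after withdrawal (4.25 ± 0.215 against 7.50 ± 0.696, adjusted p = 5.44e-06), with Marcks, for an actin-crosslinking protein kinase C substrate (33.2 ± 2.59 against 58.3 ± 9.82, adjusted p = 0.000952, or 0.290 under median-of-ratios scaling).

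From day 2 to day 14, 36 of the 79 list genes fell and 4 rose, beside 17.6% and 5.55% of all tested genes. Median-of-ratios scaling gave 22 and 12, quantile scaling gave 23 and 12, and the days fitted alone gave 20 and 2. Actin turnover genes gave 11 lower and 0 higher of 22, crosslinker and focal adhesion genes 8 and 1 of 16, and tropomyosins and tropomodulins 4 and 0 of 4. Tagln2 was likewise lower on day 14 than on day 2, while Acta2 and Myl9 were higher. Without day 2 replicate 3 the list genes that rose numbered 2.

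The regulator Srf was measured at group means between 1.31 ± 0.207 RPKM with the P53 inhibitor and 2.80 ± 0.484 RPKM after HBEGF withdrawal, and was not called in any treatment, except as higher after withdrawal under median-of-ratios scaling (0.55, adjusted p = 0.0187). Its cofactor genes did not pass the filter. Group means of Mkl1 lay between 0.0803 and 0.159 RPKM and those of Mkl2 between 0.429 and 0.747 RPKM, and Myocd, the muscle cofactor, had a highest group mean of 0.00364 RPKM.

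SRF binds a sequence called the CArG box, which was searched on both strands in RefSeq promoter windows (GRCm38.p6) of 300 bases, from 250 before to 50 after a start. Windows of 8 of the 10 genes were searched, 11 in all (not Lgals1 and Tagln). An exact box was in 535 of all 32851 windows (1.63%), among them the window of Myl9 and 1 of 4 windows of Myadm, and in none of the other members' windows. A box with 1 base different was in 19.9% of all windows, among them those of Acta2 (2 boxes), Tpm1 (2) and Myl9 (1, beside its exact box). The 3 windows below belong to the genes called higher after withdrawal with an exact or near box: Myl9 (chr2:156775214-156775513, plus strand), Myadm (chr7:3292778-3293077, plus strand) and Acta2 (chr19:34255324-34255623, minus strand). They run 5′ to 3′ along the gene, and capitals mark the exact box in Myl9 and Myadm and the boxes with 1 base different in Acta2, while that of Myl9 is left in lower case.
Myl9: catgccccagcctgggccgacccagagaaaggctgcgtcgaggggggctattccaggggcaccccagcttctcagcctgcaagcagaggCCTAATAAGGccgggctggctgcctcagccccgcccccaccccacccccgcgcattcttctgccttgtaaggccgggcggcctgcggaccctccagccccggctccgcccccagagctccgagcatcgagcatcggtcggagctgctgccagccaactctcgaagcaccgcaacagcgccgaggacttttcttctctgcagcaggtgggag
Myadm: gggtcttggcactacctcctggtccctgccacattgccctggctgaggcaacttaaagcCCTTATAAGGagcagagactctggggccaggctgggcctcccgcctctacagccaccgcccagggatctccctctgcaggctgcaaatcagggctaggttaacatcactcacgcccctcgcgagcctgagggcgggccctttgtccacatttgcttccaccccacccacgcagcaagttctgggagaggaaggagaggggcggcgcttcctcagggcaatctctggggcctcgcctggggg
Acta2: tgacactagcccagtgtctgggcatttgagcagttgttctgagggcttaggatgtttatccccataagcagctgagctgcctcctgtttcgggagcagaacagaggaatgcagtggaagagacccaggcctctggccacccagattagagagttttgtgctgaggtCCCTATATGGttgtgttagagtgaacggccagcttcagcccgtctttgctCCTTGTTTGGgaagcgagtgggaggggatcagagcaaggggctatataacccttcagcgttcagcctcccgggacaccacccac
The box begins 161 bases before the start in Myl9, as CCTAATAAGG, and 191 bases before it in Myadm, as CCTTATAAGG. In Acta2 the near boxes begin 84 and 34 bases before it, as CCCTATATGG and CCTTGTTTGG. A match of letters is not evidence of binding.

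How far members varied together within groups was read from each library's deviation from its group mean of log2(RPKM + 1), over 25 libraries. Of 45 pairs, named after their values were seen, Anxa2 and S100a6 had the highest correlation (r = 0.94, Spearman 0.93), or r = 0.86 without day 7 replicates 2 and 3. Acta2 and Myl9 followed (r = 0.84, Spearman 0.86), with r = 0.87 without day 2 replicate 2 and day 7 replicate 3, and Lgals1 and Tagln2 had r = 0.66. Tpm1 and Myadm gave -0.74. These are descriptions, since the 2 genes of a pair share their libraries, depth and scaling.

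**Figure D4:**
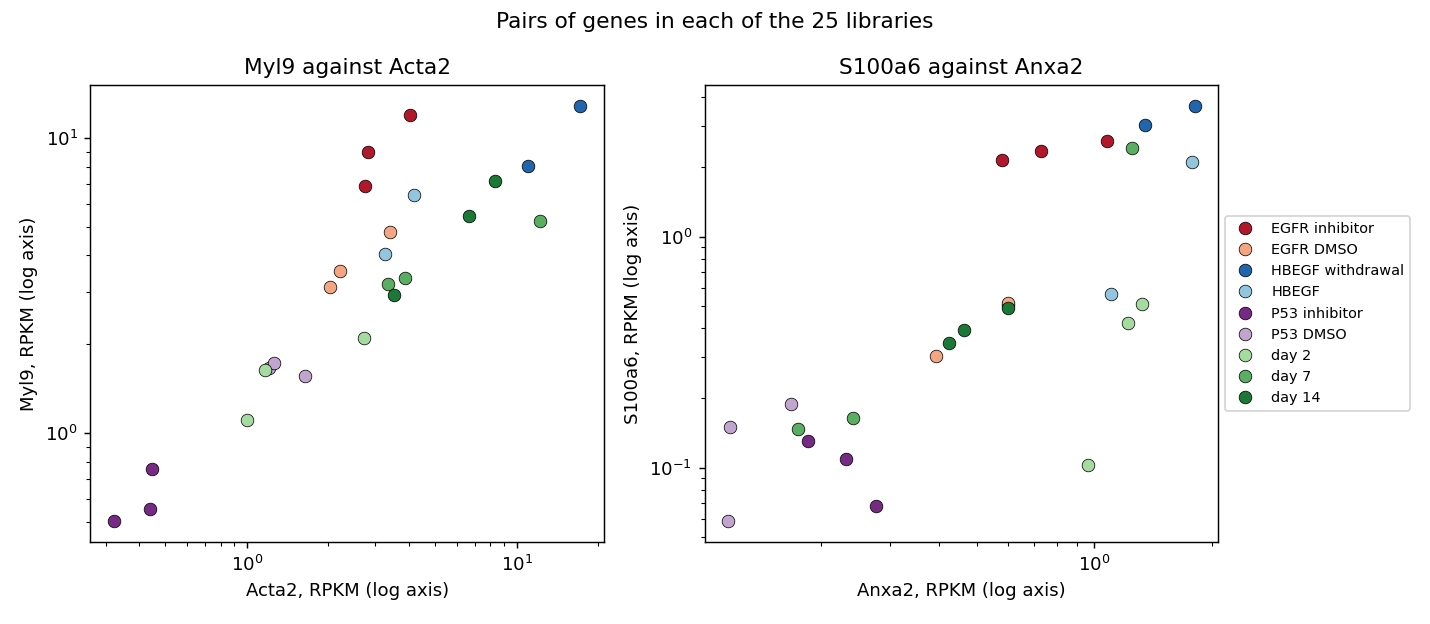
RPKM of Myl9 against Acta2 (left) and of S100a6 against Anxa2 (right) in each of the 25 libraries, coloured by group, on log axes. The P53 inhibitor libraries lie at the low end for Acta2 and Myl9, the HBEGF withdrawal libraries lie at the high end of both panels, and 1 day 7 library lies beside the EGFR inhibitor libraries on the right.

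Genes with the pattern most like that of Lgals1 over the 9 group means, among 2349 genes that reach 5 RPKM, were Leo1 (r = 0.99), Hirip3 (0.99), Arf1 (0.99), Tubb6 (0.99) and Vars (0.99). All 5 were highest on day 2 and lowest with the EGFR inhibitor, as Lgals1 was, which largely follows from choosing them by likeness to it. Of these Tubb6, a beta-tubulin gene, had 0.836 RPKM with the inhibitor and 20.2 RPKM on day 2, and Arf1 5.56 and 9.31 RPKM. For Tagln2 the closest were Psmc3ip (0.93), Alg10b (0.92), Ckap4 (0.90), Pclaf (0.87) and Fjx1 (0.87), each less close than the 5 named for Lgals1.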

How the data were processed

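The authors deposited RPKM for 54429 entries in 25 libraries, made with the NEBNext Ultra kit from Ovation V2 cDNA, per the labels' protocols. The submitters' processing notes name STAR, HTSeq, limma and GRCm38 among others, and give no version, role or strand setting. The product of RPKM and whole gene span (GENCODE M21) totalled 1000771 to 1004301 per library. With exon length the totals were 377321 to 519622, so span was taken as the authors' length. Reads recovered with it were whole for 99.02 to 99.24% of values up to 20 reads (within 0.1).

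Genes with at least 1 RPKM in at least 2 libraries were tested, leaving out 4 entries with a repeated symbol. limma fitted log2(RPKM + 1), on which folds of low genes are understated, with a mean per group, trend and robust empirical Bayes, and Benjamini-Hochberg adjustment within a comparison (called below 0.05). Every p in the text is from this limma fit, or from a limma refit under the alternative setting named beside it, voom among them. A p that misses the threshold does not show equal levels. Members and lists were chosen with earlier results of these data known. All members are named, with up to 2 genes per list and direction by adjusted p, among those reaching 5 RPKM, and the 5 genes most like Lgals1 and Tagln2. Alternatives were median-of-ratios, quantile and mitochondria-free scaling, a pseudocount of 0.1, filters of 0 and 5 RPKM, each experiment alone, a replicate block, voom and leaving out each library. Exon-length RPKM and a block of days 2 and 14 alone were added after the data were seen. Deviations of same-numbered libraries correlated at 0.15 to 0.28 between days 14 and 2. They ran from -0.16 to 0.09 between days 7 and 2, and from -0.24 to 0.07 between days 14 and 7. The reported fit has no replicate block, because the labels do not say that replicate numbers mark pairs. Blocks were fitted only as alternatives. Beforehand, the fit was tested on simulated data. Python 3.11.15 with pandas 2.3.3, and R 4.3.3 with limma 3.58.1, were used.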

Additional observations from a re-analysis of the deposited data

Results flagged for a closer look

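The changes of 2 genes differed between the EGFR inhibitor and HBEGF withdrawal when the difference itself was tested by limma. Myadm differed by -2.24 on the log2 scale (adjusted p = 0.000689), lower in 3 of 3 inhibitor libraries than in any DMSO library, and higher in 2 of 2 withdrawal libraries than in any library with HBEGF. Tpm2 differed by -1.08 (adjusted p = 0.0120), with overlapping values in the inhibitor experiment and higher values in 2 of 2 withdrawal libraries. Its HBEGF libraries, with 19 and 12 reads, had the lowest mean of the 9 groups (0.243 RPKM). Its withdrawal values (0.834 and 1.69 RPKM) overlapped those of the EGFR DMSO group (0.960 to 1.18 RPKM). The Tpm2 call was lost without HBEGF withdrawal replicate 1 (0.0653) and with the replicate block (0.0591).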

How the results depend on the processing

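Of 674 values of the 10 genes under other settings, 619 kept their side of the threshold, 37 lost a call, 18 gained one and 0 turned a called direction. Of the 37 lost calls, 20 were among 106 values for HBEGF withdrawal under other processing, against 4 of 106 for the EGFR inhibitor. All values for the P53 inhibitor, where 0 genes were called as reported, kept their side. Some uncalled changes among the 619 switched sign, such as that of Anxa2 after withdrawal (0.08 as reported, and down to -0.12). Members called lower with the EGFR inhibitor numbered 2 under median-of-ratios scaling instead of 4, and those higher 1 with a filter of 5 RPKM instead of 2. After HBEGF withdrawal, 1 member was lower, instead of 2, with a pseudocount of 0.1, without a filter, with median-of-ratios, quantile or mitochondria-free scaling and the replicate block, and 0 with the experiment alone. Members higher, 5 in the report, numbered 3 with a pseudocount of 0.1, without a filter, with one of 5 RPKM and with the replicate block. They numbered 0 with the experiment alone, where 0 of all 13848 tested genes were called. Leaving out 1 library gave 3 to 5 lower and 2 to 2 higher with the inhibitor, 1 to 2 lower and 2 to 6 higher after withdrawal, and 1 to 3 differences between the treatments, which were 1 with the block and 4 by voom instead of 2.

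List genes lower and higher with the inhibitor (36 and 13) were 19 and 4 with a filter of 5 RPKM and 22 and 24 under median-of-ratios scaling, with 28 higher without a filter and 30 to 35 and 12 to 14 leaving out 1 library. After withdrawal (34 and 10) they were 20 and 2 with the filter of 5, 13 and 24 under median-of-ratios, 0 and 0 with the experiment alone, 22 lower under quantile and 22 under mitochondria-free scaling, and 30 higher without a filter. Leaving out 1 library gave 25 to 31 and 4 to 10, the lowest without HBEGF replicate 2. For the P53 inhibitor voom called 2 lower instead of 0. Between days 14 and 2 (36 and 4) they were 17 and 1 with the filter of 5, 22 and 12 under median-of-ratios, 23 and 12 under quantile scaling and 20 and 2 with the experiment alone, with 8 higher both without a filter and under mitochondria-free scaling. Leaving out 1 library gave 29 to 40 and 2 to 5, with 2 without day 2 replicate 3. The causes were not tested, except that a filter of 5 RPKM leaves fewer genes and the experiment alone fewer samples.

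In the treatments, replicate numbers were not taken to pair the samples, though 2 or 3 libraries per group cannot show whether they do. Correlations of same-numbered libraries ran from -0.01 to 0.06 in the EGFR experiment and from -0.02 to 0.15 in the P53 experiment, and were 0.08 in the HBEGF experiment. With 2 libraries per group, the HBEGF values could differ only in sign. Between days 14 and 2 the list counts were 35 and 4 with a replicate block over the 3 days, and 39 and 6 with a block of days 2 and 14 alone, added after the data were seen. With the block the Tpm2 difference had an adjusted p of 0.0591. S100a6 (down to 3 reads), Tpm2 (down to 11 reads) and Tagln (down to 0 reads) are limited by depth.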
